A study of Mus musculus with 16 samples.

Results

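The germline piRNA pathway genes described here were Piwil2, Mov10l1, Ddx4, Mael, Asz1, Fkbp6, Tdrd1, Tdrd9, Tdrd12 and Tex19.1, 10 of the 21171 genes that had a probe on the array. A member was taken as every non-control probe whose RefSeq accession belonged to that gene, which gave 11 of 55681 probes. Fkbp6 had 2 probes and each of the others had 1. Expression was read in cultured mouse embryonic stem cells (mESCs), on 16 one-colour Agilent arrays with 1 array per sample. The cells were of 3 lines, each grown in 2 media. J1 is the WT line, male and of strain 129S4/SvJae, from which the others were made. In TKO all 3 DNA methyltransferase genes are inactivated, Dnmt1, Dnmt3a and Dnmt3b. The 3B3l line is a knockout of Dnmt3a and Dnmt3b that was given constitutively expressed exogenous Dnmt3b and its cofactor Dnmt3l. Serum medium held 15% FCS and 500 U/ml LIF. The 2i cultures had been kept for 2 weeks with 1 uM PD0325901 (a MEK inhibitor), 3 uM CHIR99021 (a GSK3 inhibitor) and 1000 U/ml LIF. There were 4 arrays of J1-serum, 3 each of J1-2i and of TKO-2i, and 2 each of 3B3l-2i, 3B3l-serum and TKO-serum. The methods of the study put J1-serum on a layer of inactivated feeder cells and the TKO and 3B3l lines on none, and the study describes its 2i cells as grown on gelatin. Each genotype was represented by a single line, and the labels do not say whether arrays of a group came from separate cultures, so the p-values measure the spread between these samples, which may be technical.

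PIWI-interacting RNAs (piRNAs) are small RNAs of the germline that guide PIWI proteins to the transcripts of transposable elements. They are made and amplified in perinuclear germ granules (nuage), where RNA helicases process precursor transcripts, Tudor domain proteins dock on methylated arginines of PIWI proteins, and scaffold proteins tie the granules to mitochondria. Outside germ cells most of these genes are silent, and several of them are known for CpG-rich promoters that carry DNA methylation in somatic cells.

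The RefSeq promoter table (build GRCm38.p6, 250 bases before to 50 bases after each transcript start) held 13 windows for 9 of the 10 members, all but Piwil2. Promoters of 5 members are printed because these genes moved with line or medium on the arrays. Each is on the strand of its gene, 5′ to 3′, with every CpG in capitals. They lie at chr6:18109012-18109311 for Asz1 (minus strand), chr5:135349864-135350163 for Fkbp6 (minus strand, the more CpG-rich of its 2 overlapping windows), chr1:166238695-166238994 for Mael (minus strand), chr13:112652261-112652560 for Ddx4 (minus strand) and chr15:88982744-88983043 for Mov10l1 (plus strand).
Asz1: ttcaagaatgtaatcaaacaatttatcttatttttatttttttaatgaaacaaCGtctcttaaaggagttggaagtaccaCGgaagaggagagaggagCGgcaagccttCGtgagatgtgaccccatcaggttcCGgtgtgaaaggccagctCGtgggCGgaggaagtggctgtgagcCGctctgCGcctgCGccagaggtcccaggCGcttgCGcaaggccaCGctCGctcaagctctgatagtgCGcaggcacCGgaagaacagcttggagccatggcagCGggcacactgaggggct
Fkbp6: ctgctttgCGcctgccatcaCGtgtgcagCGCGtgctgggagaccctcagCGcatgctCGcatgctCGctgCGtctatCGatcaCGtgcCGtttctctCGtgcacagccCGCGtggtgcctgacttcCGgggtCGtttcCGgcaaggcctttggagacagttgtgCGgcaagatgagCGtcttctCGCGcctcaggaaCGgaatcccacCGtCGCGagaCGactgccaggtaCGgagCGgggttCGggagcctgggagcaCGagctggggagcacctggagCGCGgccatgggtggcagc
Mael: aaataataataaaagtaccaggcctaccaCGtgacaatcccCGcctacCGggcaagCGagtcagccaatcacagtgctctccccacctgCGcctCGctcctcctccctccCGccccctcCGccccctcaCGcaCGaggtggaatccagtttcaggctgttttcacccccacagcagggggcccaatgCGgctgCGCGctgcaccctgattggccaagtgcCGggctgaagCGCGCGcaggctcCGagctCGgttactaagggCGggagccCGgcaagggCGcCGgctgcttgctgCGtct
Ddx4: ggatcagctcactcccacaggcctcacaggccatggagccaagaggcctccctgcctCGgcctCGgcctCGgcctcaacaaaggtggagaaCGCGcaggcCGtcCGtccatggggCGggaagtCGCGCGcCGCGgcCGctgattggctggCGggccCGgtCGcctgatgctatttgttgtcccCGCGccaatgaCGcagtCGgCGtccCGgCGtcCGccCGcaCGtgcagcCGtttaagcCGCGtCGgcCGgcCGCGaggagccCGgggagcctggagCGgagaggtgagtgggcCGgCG
Mov10l1: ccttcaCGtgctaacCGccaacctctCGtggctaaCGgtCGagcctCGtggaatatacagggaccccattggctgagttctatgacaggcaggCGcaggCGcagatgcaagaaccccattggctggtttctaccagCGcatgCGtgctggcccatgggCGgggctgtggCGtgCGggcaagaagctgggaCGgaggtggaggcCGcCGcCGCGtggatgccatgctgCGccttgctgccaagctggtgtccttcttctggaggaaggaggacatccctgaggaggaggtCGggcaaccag

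These windows held 17 CpGs for Asz1, 32 for Fkbp6, 24 for Mael, 38 for Ddx4 and 20 for Mov10l1, against a median of 7 (quartiles 3 and 20) over 32851 mouse promoter windows. The Ddx4 promoter had the most CpGs of the member windows, and 4.95% of all windows had as many or more. Tdrd12 had 11 and 9 CpGs in its 2 windows, Tdrd9 had 10 and Tex19.1 had 16. Tdrd1 had 20, 25 and 3 in its 3 windows, the last of which starts downstream of the other two. The palindrome CACGTG, an E-box, occurred in at least 1 window of 6 of the 9 members (Mael, Fkbp6, Tdrd9, Ddx4, Mov10l1 and Tdrd1), against 8.09% of the 27025 genes in the table. It was absent from the windows of Asz1, Tdrd12 and Tex19.1. TCCCGC, read on both strands, occurred in Mael, Ddx4 and Tex19.1, 3 of 9 members against 22% of genes, and overlapped no CACGTG in these windows. These are matches of letters, not bound sites, and DNA methylation was not among the values analysed here.

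**Figure D1:**
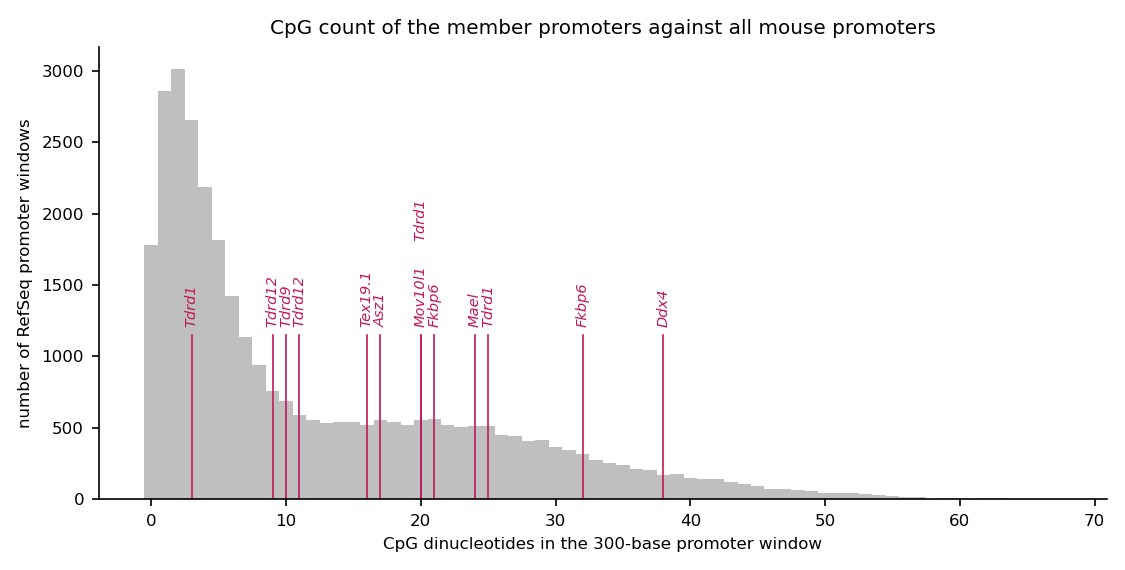
Number of CpG dinucleotides in each 300-base promoter window (x axis) against the number of RefSeq promoter windows with that count (y axis, grey bars), with the windows of the members marked by lines. The member windows run from 3 CpGs (Tdrd1) to 38 (Ddx4), and 12 of the 13 lie above the median of 7.

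The share of spots well above background ran from 39.7% to 49.0% over the arrays, and the number of arrays limited the precision. Levels are log2 processed signal minus the 75th percentile of the same array, so 0 marks the 75th percentile. The lowest level that counted as well above background lay between -2.92 and -2.18, depending on the array. The arrays lay on 3 slides: slide 1 held only J1 and TKO arrays, slide 2 held 3 more of them, and slide 3 carried the 3B3l arrays together with J1-serum replicate 1. Slide 3 was scanned on a different day from slides 1 and 2. All 12 stem cell markers tested were well above background on every array of each group. Dnmt1, the maintenance methyltransferase, lay between -1.70 and -1.42 on the TKO arrays and between 1.61 and 2.45 on all others, and Dnmt3a fell short of the background limit on all TKO and 3B3l arrays. The summed linear level of 20 fibroblast genes was 57.8 to 69.8 in J1-serum, 41.0 to 41.5 in 3B3l-serum and 14.5 to 15.1 in TKO-serum, against 2.86 to 4.74 on the 2i arrays. Of these genes 13 were well above background on all J1-serum arrays, 10 in TKO-serum, 11 in 3B3l-serum and 5 to 8 in the 2i groups. Lum, Prrx1 and Col5a2 were well above background on no array. In 3B3l-serum the contractile genes Tagln and Acta2 had mean log2 levels of 4.39 and 2.92. There 9 of the 20 genes, Dcn and Pdgfra among them, were well above background on neither array, so the sum does not measure fibroblast content. In bulk RNA, fewer cells with a transcript and less transcript per cell cannot be told apart.

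Most of the pathway was already measurable in WT cells in serum. On all 4 J1-serum arrays, 7 of the 10 members were well above background: Mael, Ddx4, Tdrd12, Tex19.1, Fkbp6, Piwil2 and Mov10l1. The genes had been grouped as having promoters silenced by DNA methylation, and transcripts of these 7 were nonetheless detected in WT serum cells. Promoter methylation itself was not examined. The members well above background on every array of a group numbered 5 in J1-2i, 8 in TKO-serum, 6 in TKO-2i, 6 in 3B3l-serum and 5 in 3B3l-2i. Asz1 was the member that reached this level in TKO groups and in no other. Tdrd1, a Tudor domain protein of the granule, was well above background on none of the 16 arrays. Tdrd9, a Tudor domain helicase, was well above background on J1-serum replicate 3 and on no other array. Tdrd1 and Tdrd9 were therefore not tested, which left 8 members on 9 probes among 13928 genes tested.

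**Figure D2:**
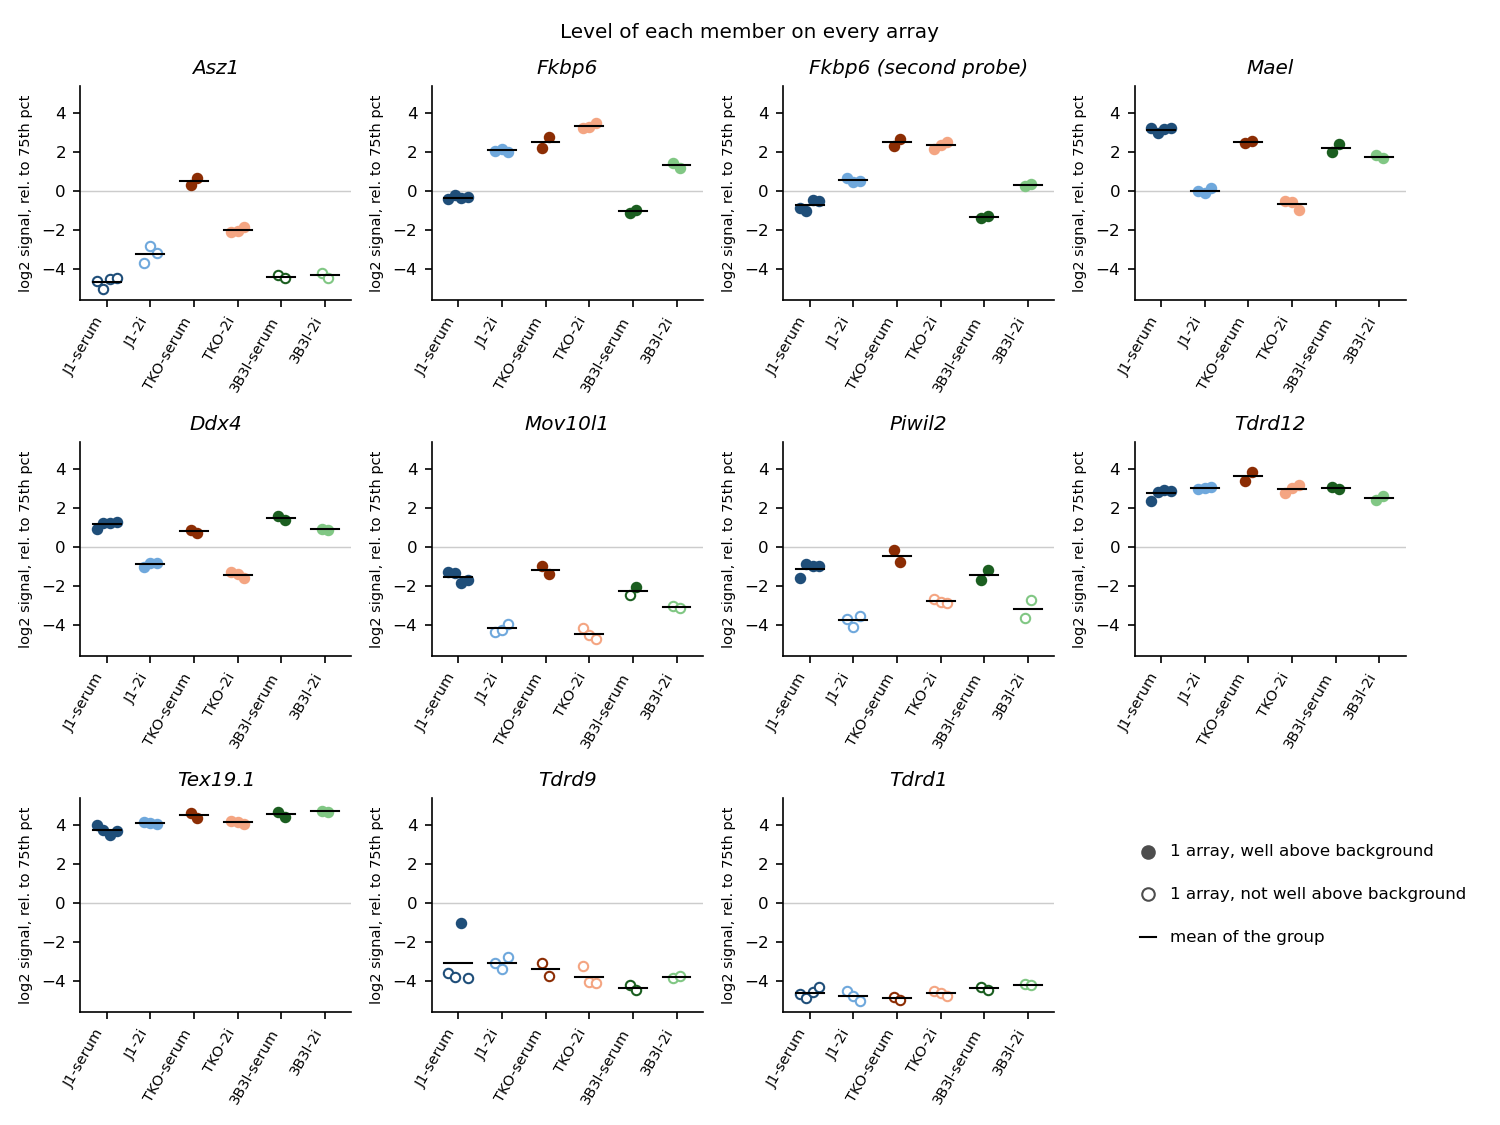
Log2 level, scaled to each array's 75th percentile (y axis), for each member probe on each of the 16 arrays, by group (x axis). Filled points were well above background, open points were not, and lines are group means; levels of different probes are not comparable. Mael and Ddx4 are lowest in J1-2i and TKO-2i, Fkbp6 is highest in TKO, and Asz1 is filled in TKO only.

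The 2i response asked how each line changed when serum was replaced by the inhibitors. In J1, 4 of the 8 tested members were lower in 2i (Mael, Ddx4, Mov10l1 and Piwil2) and 2 were higher (Fkbp6 and Asz1, the latter below background in both media), while 13.8% of all genes tested were lower and 11.5% higher. In TKO, 5 members were lower (the same 4 genes and Asz1) and none was called higher by limma, with 1 higher at an unadjusted p under 0.05 (Fkbp6), against 10.2% and 7.5% of all genes (17.7% in either direction). In 3B3l, Piwil2 was called lower and Fkbp6 higher, against 8.63% and 6.25% of all genes, while 5 members were lower and 1 higher at an unadjusted p under 0.05 (Mael, Ddx4, Mov10l1 and Tdrd12 at under 2-fold). The median log2 response of the tested members was -0.90 in J1, -2.28 in TKO and -0.46 in 3B3l, beside medians of 0.04, 0.08 and -0.02 over all probes. Members that passed the background filter through 1 medium only weigh on these medians, so they stand as a description.

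Mael, a granule protein required for transposon silencing in the male germline, read 3.23, 2.96, 3.19 and 3.24 on the J1-serum arrays and 0.0038, -0.11 and 0.13 on the J1-2i arrays. In TKO it read 2.45 and 2.59 in serum and -0.50, -0.59 and -0.95 in 2i. In 3B3l it read 2.00 and 2.40 in serum and 1.84 and 1.71 in 2i. The media did not overlap in any line, but the gap was wide in J1 and TKO and narrow in 3B3l. The fitted fall was -3.15 ± 0.13 SE in J1 (8.87-fold, limma adjusted p 1.2e-09) and -3.20 ± 0.16 in TKO (9.16-fold, adjusted p 1.5e-08). In 3B3l the difference was -0.43 ± 0.17 with an adjusted p of 0.10.

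Ddx4, the vertebrate Vasa helicase and a classic germ cell marker, also had its lowest levels in J1-2i and TKO-2i. It read 0.94, 1.25, 1.25 and 1.28 in J1-serum and -1.04, -0.83 and -0.81 in J1-2i. TKO-serum arrays stood at 0.89 and 0.71 and TKO-2i arrays at -1.27, -1.39 and -1.61. The 3B3l arrays read 1.58 and 1.41 in serum and 0.95 and 0.89 in 2i, so the 3B3l-2i arrays lay below the 3B3l-serum arrays and above every 2i array of the other lines. Ddx4 fell by 4.21-fold in J1 (-2.07 ± 0.12 SE, limma adjusted p 1.5e-08) and by 4.67-fold in TKO (-2.22 ± 0.14, adjusted p 9.8e-08). In 3B3l the difference of -0.58 ± 0.15 had an adjusted p of 0.014 and was under the 2-fold limit.

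Piwil2 (Mili) is the PIWI protein that binds piRNAs in fetal and postnatal male germ cells. Its probe read -1.58, -0.88, -0.97 and -0.99 in J1-serum, -0.16 and -0.77 in TKO-serum and -1.67 and -1.16 in 3B3l-serum, all well above background. In 2i it was not well above background on any array of any line, with readings between -4.09 and -2.68. Piwil2 was therefore at least 2.98-fold lower in 2i in J1 (limma adjusted p 1.8e-06), at least 4.20-fold lower in TKO (adjusted p 5.8e-05) and at least 1.87-fold lower in 3B3l (adjusted p 0.0014). It was the only tested member called lower in all 3 lines. The call in 3B3l rests on 2 arrays per medium and was lost with an unpaired test of each probe (unadjusted p 0.079).

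Mov10l1, the helicase that binds piRNA precursor transcripts, behaved similarly in J1 and TKO. It read -1.30, -1.32, -1.87 and -1.67 in J1-serum and -0.97 and -1.39 in TKO-serum, and it was not well above background on any 2i array. It was at least 2.20-fold lower in 2i in J1 (limma adjusted p 1.5e-07) and at least 2.56-fold lower in TKO (adjusted p 2.2e-07). In 3B3l-serum 1 of 2 arrays was well above background (-2.05, the other -2.45), and both 2i arrays lay lower (-3.01 and -3.13). The fitted difference of -0.82 ± 0.25 SE (adjusted p 0.029) was under 2-fold and rests on values below background, so no fold is given for that line.

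Fkbp6, a co-chaperone that acts with Hsp90 when piRNAs are loaded, went the other way. Its brighter probe read -0.43, -0.23, -0.38 and -0.32 in J1-serum and 2.08, 2.15 and 2.02 in J1-2i, and it read -1.12 and -0.95 in 3B3l-serum and 1.46 and 1.20 in 3B3l-2i. In TKO it read 2.24 and 2.80 in serum and 3.22, 3.29 and 3.52 in 2i. Fkbp6 rose by 5.37-fold in J1 (2.43 ± 0.13 SE, limma adjusted p 1.1e-08) and by 5.16-fold in 3B3l (2.37 ± 0.17, adjusted p 5.3e-07). In TKO the difference was 0.83 ± 0.16 (adjusted p 0.0012), under the 2-fold limit. The second probe rose in J1 (1.26 ± 0.15, adjusted p 1.7e-05) and 3B3l (1.63 ± 0.20, adjusted p 5.2e-05), while in TKO it gave -0.15 ± 0.18 (adjusted p 0.58), so the probes of Fkbp6 disagreed in sign in that line.

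Asz1, a scaffold of the granules between mitochondria, was well above background in TKO alone. TKO-serum arrays read 0.30 and 0.69 and TKO-2i arrays -2.12, -2.05 and -1.85, a fall of 5.65-fold (-2.5 ± 0.24 SE, limma adjusted p 4.5e-06). In J1 the probe read -5.05 to -4.44 in serum and -3.70 to -2.80 in 2i, all below the background limit, and although this difference was called (adjusted p 6.6e-05) no fold can be given.

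Tdrd12, a Tudor domain protein of secondary piRNA production, and Tex19.1, which limits retrotransposons in germ cells and placenta and is expressed in pluripotent cells, kept high levels throughout. Tdrd12 lay between 2.37 and 3.88 and Tex19.1 between 3.52 and 4.73 over the 16 arrays. Neither was called in any of the 9 comparisons of line or medium, where their differences ran from -0.64 to 0.87 for Tdrd12 and from -0.36 to 0.82 for Tex19.1. Without TKO-serum replicate 1, which leaves 1 array in that group, the Tdrd12 difference between TKO-serum and J1-serum was 1.12, past 2-fold. With all arrays, some differences of these genes had small p-values at under 2-fold, the smallest being 0.002 for Tdrd12 and 0.00027 for Tex19.1 (limma, adjusted). Tex19.1 has a close paralogue, Tex19.2, and hybridisation between them was not examined.

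**Figure D3:**
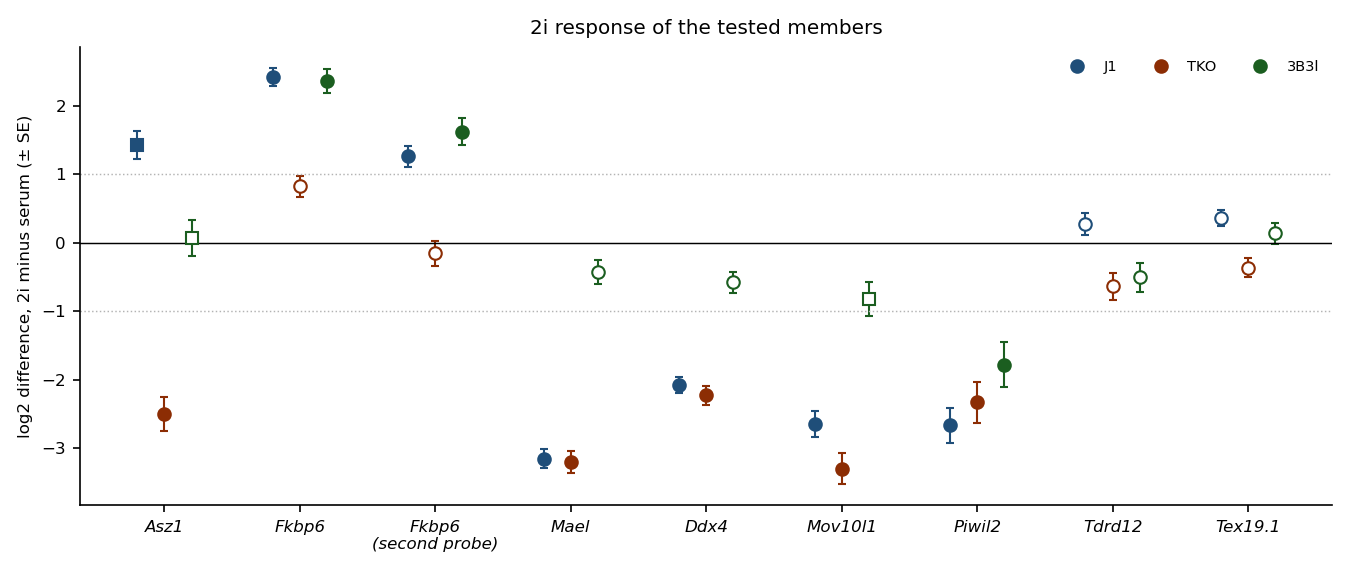
Log2 difference between 2i and serum (y axis, ± SE of the limma fit) for the 9 tested member probes (x axis) in J1, TKO and 3B3l. Filled symbols passed an adjusted p of 0.05 and 2-fold (dotted lines), squares mark differences with neither group well above background, and fitted values of Asz1, Mov10l1 and Piwil2 are not bounds. Mael, Ddx4 and Mov10l1 lie below -2 in J1 and TKO and above -1 in 3B3l.

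J1-serum was the group stated to have feeders, and the fibroblast sum fell with 2i in each line. In the lines grown without feeders the sum was 14.5 to 15.1 in TKO-serum and 41.0 to 41.5 in 3B3l-serum. It was 3.39 to 4.06 in TKO-2i and 4.67 to 4.74 in 3B3l-2i. The falls of Mael, Ddx4, Mov10l1 and Piwil2 were called in J1 and in TKO. The part of other cells in these falls was not tested. On slide 1 alone, which held 2 arrays of each J1 and TKO group, the same numbers of members were called, 6 in J1 and 5 in TKO, with Mael at -3.15 in J1 and -3.29 in TKO.

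TKO and J1 were compared in each medium to ask what differed between cells without and with the DNA methyltransferases. Asz1 and Fkbp6 were higher in TKO in both media, and no tested member was called lower (limma). At an unadjusted p under 0.05, 5 members were higher and 2 lower in serum, and 3 were higher and 2 lower in 2i, the lower ones being Mael and Ddx4 each time. In serum the 2 of 8 members called higher stood beside 9.2% of all genes, with 9.84% lower and 19% in either direction, and in 2i beside 4.52%, with 4.01% lower and 8.52% in either direction. Asz1 was at least 8.41-fold higher in TKO-serum than in J1-serum (limma adjusted p 9.8e-09) and at least 1.59-fold higher in TKO-2i than in J1-2i (adjusted p 0.0013). Fkbp6 was 7.25-fold higher in serum (2.86 ± 0.15 SE, adjusted p 3.1e-08) and 2.39-fold higher in 2i (1.26 ± 0.14, adjusted p 4e-05), and its second probe gave 3.22 ± 0.17 and 1.81 ± 0.16. Every TKO array exceeded every J1 array of the same medium for these 3 probes. The call of Asz1 in 2i was the least secure, since the log2 difference of 1.23 became 0.996 without J1-2i replicate 1 and 0.76 with normexp background correction, both under the limit.

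The members that were lower in 2i in J1, Mael, Ddx4, Mov10l1 and Piwil2, were not called different between TKO and J1. Mael differed by -0.64 ± 0.15 SE on the log2 scale in serum (limma adjusted p 0.0046) and by -0.69 ± 0.14 in 2i (adjusted p 0.0041), both under 2-fold. Ddx4 differed by -0.38 ± 0.13 in serum (adjusted p 0.037) and -0.53 ± 0.12 in 2i (adjusted p 0.0086). Mov10l1 and Piwil2 differed in serum by 0.36 ± 0.22 (adjusted p 0.22) and 0.64 ± 0.28 (adjusted p 0.097). In 2i both were below background in both lines, where the Piwil2 probe read higher in TKO (adjusted p 0.02) without passing 2-fold. Within slide 1 the difference between the lines was 4.98 for Asz1 and 2.87 for Fkbp6 in serum, beside 5.16 and 2.86 over all slides, and -0.70 for Mael. These are fitted log2 values, and that of Asz1 rests on J1 arrays below background.

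**Figure D4:**
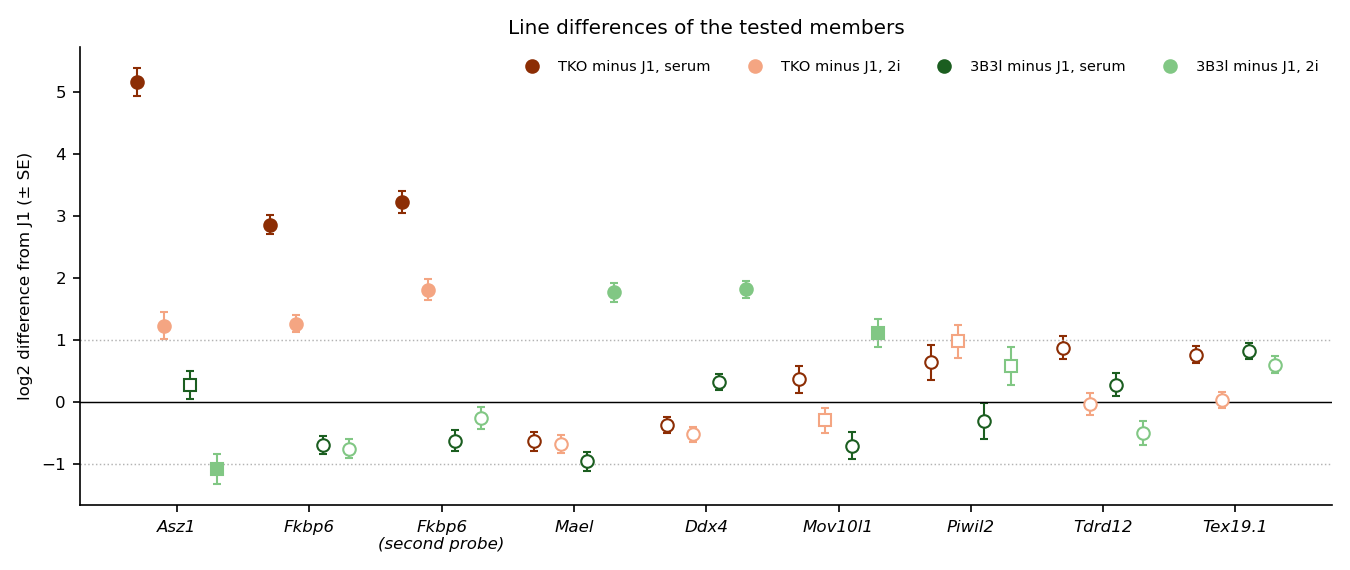
Log2 difference of TKO or 3B3l from J1 in each medium (y axis, ± SE of the limma fit) for the 9 tested member probes (x axis). Filled symbols were called, dotted lines mark 2-fold, squares mark differences with neither group well above background, and fitted values of Asz1, Mov10l1 and Piwil2 are not bounds. Asz1 and Fkbp6 are filled and positive for TKO, Mael and Ddx4 for 3B3l in 2i.

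3B3l was set against J1 to ask what differed with exogenous Dnmt3b and Dnmt3l. J1-serum expressed these genes too. Dnmt3l had mean log2 levels of 4.64 in J1-serum, 5.85 in 3B3l-serum (saturated), 0.74 in J1-2i and 4.38 in 3B3l-2i. Its fall within 3B3l was 2.76-fold (limma adjusted p 2.7e-05). The Dnmt3b probe brightest over all arrays had means of 2.96, 5.53, 0.63 and 5.82 in the same order. The other Dnmt3b probes were lower in 3B3l than in J1 in each medium. In serum no tested member was called by limma (0 of 8, against 22.6% of all genes). An adjusted p of at most 0.05 at under 2-fold was reached by 4 members, an unadjusted p under 0.05 by 5, and an unpaired test of each probe also called 0. The nearest was Mael at -0.96 ± 0.15 SE (limma adjusted p 0.00021), which passed 2-fold under 6 alternatives, among them quantile normalization (-1.14) and the slide as a block (-1.03). Within slide 3, against J1-serum replicate 1 alone, Mael gave -1.03. The slide block value rests on that single J1 array too. In 2i, Mael and Ddx4 were higher in 3B3l by 3.39-fold (1.76 ± 0.16, adjusted p 5e-06) and 3.52-fold (1.81 ± 0.14, adjusted p 1.3e-06), with no overlap between the arrays. Asz1 (lower) and Mov10l1 (higher) were also called in 2i, but both were below background in both lines. This made 4 of 8 members against 16.8% of all genes (9.11% higher and 7.76% lower), or 2 with a measured difference. The J1-2i and 3B3l-2i arrays shared no slide or scan day, so line cannot be told apart from these there except through J1-serum replicate 1. With the slide as a block the differences were 1.66 for Mael (adjusted p 0.0027) and 2.13 for Ddx4 (adjusted p 9.5e-05).

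Against TKO, 3B3l had less Asz1 and Fkbp6 in both media and more Mael and Ddx4 in 2i. In serum limma called 3 of 8 members lower and 0 higher at 2-fold (6.62% and 5.96% of all genes), while 5 were lower and 1 higher at an unadjusted p under 0.05. The higher one was Ddx4, with a difference of 0.70 ± 0.15 SE (1.62-fold, adjusted p 0.005). Asz1 was at least 6.71-fold lower (limma adjusted p 8.9e-08), Fkbp6 was 11.8-fold lower (-3.55 ± 0.17 SE, adjusted p 3.7e-08), and Mov10l1 was lower by -1.07 ± 0.25 on the log2 scale (adjusted p 0.0072) with 1 of 2 3B3l-serum arrays well above background. The Mov10l1 difference was -0.86 without TKO-serum replicate 1 and -0.87 without 3B3l-serum replicate 1. These values are under 2-fold, and each rests on 1 array in the group that lost one. In 2i 2 members were lower and 3 higher (6.43% and 5.46% of all genes). Fkbp6 was 4.04-fold lower (-2.01 ± 0.16, adjusted p 1.6e-06), Asz1 at least 1.24-fold lower (adjusted p 1.9e-05), Mael 5.46-fold higher (2.45 ± 0.16, adjusted p 3.2e-07) and Ddx4 5.07-fold higher (2.34 ± 0.14, adjusted p 1.4e-07). Mov10l1 was below background in both lines in 2i. TKO and 3B3l arrays shared no slide or scan day.

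The differences between responses were tested as interaction terms. The TKO response was called different from that of J1 for Fkbp6 and Asz1, 2 of 8 members against 17.4% of all genes (8.59% more negative and 8.85% more positive). Fkbp6 gave -1.60 ± 0.20 SE (limma adjusted p 0.0001) on 1 probe and -1.41 ± 0.24 (adjusted p 0.00081) on the other. The call of Asz1 (adjusted p 2.3e-06) rests on J1 arrays below background in both media, so the size of its difference was not measured. For Mael (-0.05 ± 0.21, adjusted p 0.90) and Ddx4 (-0.15 ± 0.18, adjusted p 0.60) no difference was detected. The 3B3l response differed from that of J1 for Mael (2.72 ± 0.22, adjusted p 2.1e-06) and Ddx4 (1.5 ± 0.19, adjusted p 9.3e-05), both less negative in 3B3l. With Mov10l1 and Asz1, which were also called, this was 4 of 8 members against 19.9% of all genes (10.1% more positive and 9.87% more negative). Among these 4 groups Mov10l1 was well above background on all arrays of J1-serum alone and Asz1 on those of none, so neither difference was measured. The responses of Fkbp6 (-0.06 ± 0.22, adjusted p 0.87) and Piwil2 (0.89 ± 0.41, adjusted p 0.14) were not called different between 3B3l and J1.

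Over the 6 groups the levels of Mael, Ddx4 and Fkbp6 had different orders. Mael ran from J1-serum (mean 3.16 ± 0.13 SD, n = 4) through TKO-serum (2.52 ± 0.10, n = 2), 3B3l-serum (2.20 ± 0.28, n = 2) and 3B3l-2i (1.77 ± 0.09, n = 2) to J1-2i (0.01 ± 0.12, n = 3) and TKO-2i (-0.68 ± 0.24, n = 3). Its 3 middle groups had adjusted p-values of 0.19 and 0.10 between neighbours (limma). Ddx4 ran from 3B3l-serum (1.5 ± 0.12, n = 2) and J1-serum (1.18 ± 0.16, n = 4) through 3B3l-2i (0.92 ± 0.05, n = 2) and TKO-serum (0.80 ± 0.13, n = 2) to J1-2i (-0.89 ± 0.13, n = 3) and TKO-2i (-1.42 ± 0.17, n = 3). The first of these neighbours had an adjusted p of 0.067 (limma). The 3B3l-2i arrays overlapped those of J1-serum and of TKO-serum and were compared with neither, so the order of these groups is not settled. Fkbp6 ran from TKO-2i (3.34 ± 0.15, n = 3), TKO-serum (2.52 ± 0.40, n = 2) and J1-2i (2.09 ± 0.07, n = 3) through 3B3l-2i (1.33 ± 0.18, n = 2) to J1-serum (-0.34 ± 0.09, n = 4) and 3B3l-serum (-1.04 ± 0.12, n = 2). That is the order of its brighter probe, while the second probe placed TKO-serum (2.52) above TKO-2i (2.37), with overlapping arrays, and J1-2i at 0.56.

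Across the 16 arrays, which share lines, media and slides, Mael correlated with Mov10l1 at Pearson r = 0.95 and with Ddx4 at 0.94, and Mov10l1 with Piwil2 at 0.88. Fkbp6 ran against Ddx4 (r = -0.83) and Mael (-0.77) and with Asz1 (0.74). These values include arrays not well above background, 9 of 16 for Mov10l1, 8 for Piwil2 and 11 for Asz1. Tex19.1 had no correlation above 0.27 with any other tested member. Of 13658 other genes, those most like a member were Dazl (0.98) and Crtap (0.97) for Fkbp6, Slc4a3 and Lrrfip1 (both 0.98) for Mael, Sh3gl3 (0.98) and Lrrfip1 (0.97) for Ddx4, Dlk1 (0.98) and Syce3 (0.97) for Mov10l1, and Bok (0.98) and Sptbn4 (0.97) for Piwil2. For Asz1 they were Scml2 (0.96) and Cox7b2 (0.95), for Tdrd12 Tmeff1 and Nek4 (both 0.94), and for Tex19.1 Samhd1 and Ceacam2 (both 0.96). They are given as a description over n = 16 arrays. Dazl, a germ cell RNA-binding protein, read -0.06 to 0.62 in J1-serum, 2.39 to 2.88 in J1-2i, 2.49 to 3.00 in TKO-serum, 3.82 to 3.99 in TKO-2i, -0.42 to -0.20 in 3B3l-serum and 1.55 to 1.83 in 3B3l-2i.

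The rest of the pathway was examined on a list of 31 further genes, of which 26 had a probe and 20 were tested. Piwil1, Tdrd6, Tdrkh, Henmt1, Gtsf2 and Nanos2 had a probe and were not well above background throughout any group. In J1, 3 of the 20 rose in 2i and 3 fell, beside 11.5% and 13.8% of all genes, and the list median was 0.18. Morc1, an ATPase of germline transposon silencing, rose by 3.58-fold (1.84 ± 0.14 SE, limma adjusted p 1.8e-07), Gpat2, a mitochondrial acyltransferase of piRNA production, by 2.79-fold (1.48 ± 0.12) and Stk31, a Tudor domain kinase, by 2.29-fold (1.19 ± 0.18). Tdrd7, a Tudor domain protein, was at least 3.76-fold lower (adjusted p 7.8e-07), Ddx25, a germ cell helicase, fell by 2.96-fold (-1.56 ± 0.16), and Tdrd5 was called lower, with 3 of 4 arrays of J1-serum and none of J1-2i above the background limit. In TKO limma called 0 of the 20 higher and 4 lower at 2-fold, beside 7.5% and 10.2% of all genes. At an unadjusted p under 0.05, 9 were lower and 2 higher, Gpat2 (0.93 ± 0.14, 1.90-fold, adjusted p 0.00018) and Pld6 (0.57 ± 0.17, adjusted p 0.022). The 4 called lower were Tdrd5 at least 1.42-fold, Rnf17 at least 1.65-fold, Tdrd7 at least 1.77-fold and Ybx2 (-1.65 ± 0.54, adjusted p 0.032). In 3B3l 2 rose and 3 fell, beside 6.25% and 8.63% of all genes. Stk31 (1.46 ± 0.24) and Morc1 (1.09 ± 0.18) rose, while Tdrd5 (at least 2.30-fold), Tdrd7 (at least 1.89-fold) and Ddx25 (3.20-fold) fell. Tdrd7 and Tdrd5, like Piwil2, were called lower in 2i in all 3 lines.

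Between lines, 5 of the 20 were higher in TKO-serum than in J1-serum and 1 was lower, against 9.2% and 9.84% of all genes. Morc1 (1.47 ± 0.15 SE on the log2 scale), Gtsf1, a zinc finger partner of PIWI proteins (1.41 ± 0.11), Wdr77, a cofactor of the arginine methyltransferase Prmt5 (1.38 ± 0.13), Stk31 (1.36 ± 0.20) and Nanos3, a germ cell RNA-binding protein (1.07 ± 0.10), were higher, and Pld6, the mitochondrial nuclease of piRNA precursors (-1.23 ± 0.16), was lower, with limma adjusted p-values of at most 0.00017. In 2i limma called 4 of the 20 lower in TKO than in J1 and 0 higher, against 4.01% and 4.52% of all genes. At an unadjusted p under 0.05, 6 were lower and 5 higher. Those called were Exd1 (-1.0 ± 0.14), Ybx2 (-1.52 ± 0.48, limma adjusted p 0.037), Tdrd5 and Rnf17. Tdrd5 was below background in both lines, and Rnf17 was well above background on 1 of 3 J1-2i arrays and on no TKO-2i array. In 3B3l-serum Nanos3 (1.12 ± 0.10) and Wdr77 (1.31 ± 0.13) were higher than in J1, and Gpat2 (-1.0 ± 0.13), Pld6 (-1.20 ± 0.16), Mybl1 (at least 2.43-fold) and Tex19.2 (-1.36 ± 0.16) were lower. In 3B3l-2i Nanos3 was higher (1.34 ± 0.10) and Gpat2 lower (-1.61 ± 0.14) than in J1, and Tdrd5 was called lower below background. Against TKO, 3B3l had less Gtsf1 (-1.79 ± 0.12), Gpat2 (-1.46 ± 0.15), Stk31 (-1.25 ± 0.24) and Tex19.2 (-1.22 ± 0.18) in serum and less Gpat2 in 2i (-1.52 ± 0.14), with Rnf17 called higher below background.

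**Figure D5:**
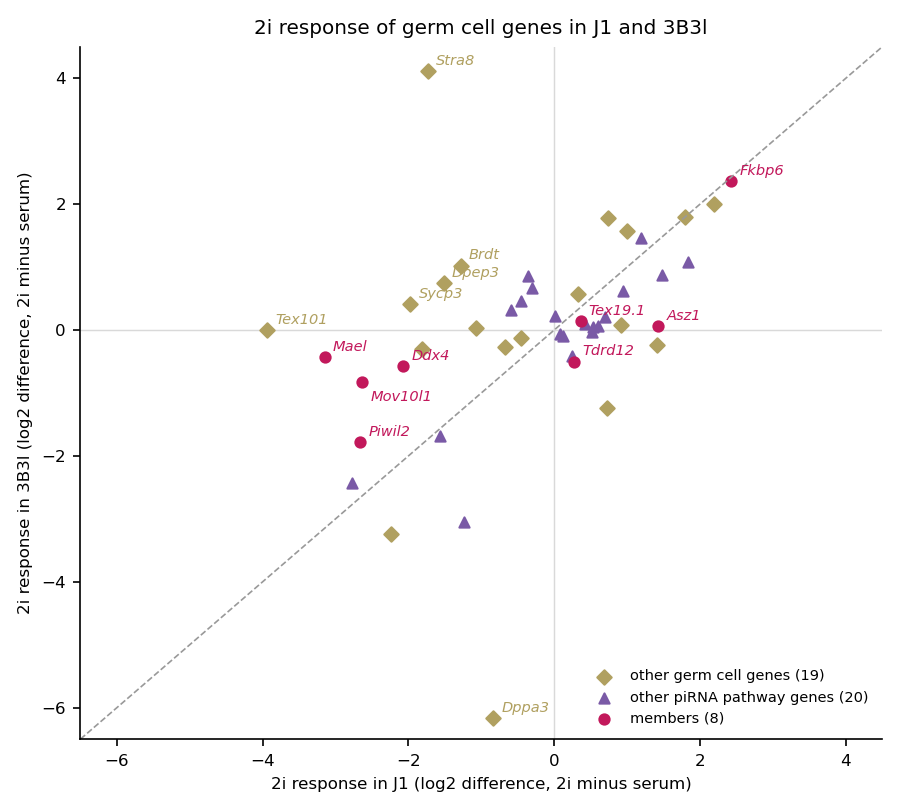
Log2 2i response in 3B3l (y axis) against that in J1 (x axis) for the tested members, other piRNA pathway genes and other germ cell genes, 1 probe per gene; the dashed line marks equal responses. Members are named, as are other genes whose responses differ by more than 2. Mael and Ddx4 lie above the line at the left and Fkbp6 lies on it. Mov10l1 and Asz1 are plotted at fitted values that rest on groups below background.

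Germ cell genes outside the pathway, 19 listed and all tested, served as the nearest comparison. In J1, 4 rose in 2i and 8 fell (median -0.68), beside 11.5% and 13.8% of all genes. In TKO 2 rose and 7 fell (median -0.79), beside 7.5% and 10.2%, and in 3B3l 5 rose and 3 fell (median 0.08), beside 6.25% and 8.63%. Dazl rose in each line, by 4.56-fold, 2.22-fold and 4.0-fold. It was 5.02-fold higher in TKO-serum than in J1-serum (2.33 ± 0.21 SE, limma adjusted p 2.5e-06), as Fkbp6 was. Smc1b, a cohesin subunit of meiosis, and Tex101, a surface protein of germ cells, were lower in J1-2i (4.71-fold and at least 3.35-fold) and in TKO-2i (7.07-fold and at least 4.55-fold), and so was Stra8, the retinoic acid target that precedes meiosis (3.33-fold and 3.26-fold). In 3B3l Stra8 rose by 17.3-fold in 2i (4.11 ± 0.21, adjusted p 3e-08), reading -0.45 and -0.61 in serum and 3.35 and 3.82 in 2i, and Smc1b was at least 5.44-fold lower. Dppa3, a maternal factor also made by germ cells and mESCs, was at least 21.1-fold lower in 3B3l-2i than in 3B3l-serum, while its 2i arrays read 1.33 to 1.79 in the other lines.

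The same list was compared between lines. Hormad1 (1.69 ± 0.12 SE), Syce1 (1.59 ± 0.13), Tuba3b (1.72 ± 0.19), Slc25a31 (1.40 ± 0.12), Rpl10l (1.06 ± 0.12) and Sycp1 (at least 1.64-fold) were higher in TKO-serum than in J1-serum, with limma adjusted p-values of at most 0.022. Sycp3 (-2.35 ± 0.16) and Brdt (-1.35 ± 0.43) were lower. Against 3B3l in serum, limma called 11 of the 19 genes higher in TKO at 2-fold, Dazl and Hormad1 among them, and 0 lower (15 and 0 at an unadjusted p under 0.05), against 6.62% and 5.96% of all genes in these directions. In 2i it called 4 higher in TKO and 4 lower (7 and 8 at an unadjusted p under 0.05), against 6.43% and 5.46% of all genes. The list also held Dpep3, Prdm1 and Tuba3a, called in at least 3 comparisons each: Dpep3 was at least 1.33-fold lower in TKO-2i than in TKO-serum, Prdm1 at least 5.05-fold lower in 3B3l-2i than in J1-2i, and Tuba3a rose by 2.01-fold, 2.03-fold and 2.99-fold in 2i in J1, TKO and 3B3l.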

How the data were processed

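The authors hybridised Cy3-labelled RNA to Agilent mouse 8x60K arrays and deposited 1 scanner file per sample, read with Agilent Feature Extraction 11.5.1.1, in which each spot has a processed signal intensity and flags for background, saturation and outliers. They also deposited a table of quantile-normalized log2 values, used here as an alternative. In 13 of its 16 columns the best match was another array of the same group, so that table was used by group only. The processed intensity was taken to log2 minus the 75th percentile of its array. Outlier spots were left out (0 of the members) and saturated spots kept. A probe counted as well above background when at least 50% of its spots were flagged so, and was tested when this held on every array of at least 1 group. This gave 27126 probes, 888 of them without a value on at least 1 array. The tested probes with a gene symbol covered 13928 genes.

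A model of 6 group means over 16 arrays was fitted with limma 3.58.1 in R 4.3.3, and p-values were adjusted over all tested probes (Benjamini-Hochberg). The threshold for a call was 2-fold together with an adjusted p no higher than 0.05, in at least 1 probe of a gene. The fit gave 9 comparisons of line or medium and 2 differences between responses, and it was tested on simulated data. A gene not well above background on any array of 1 group is given as at least N-fold. That bound sets the bright group's mean against, per array, the higher of the lowest signal well above background and the dim probe's own. The members and gene lists were chosen with earlier results of these data known. Members were all named. Of the other piRNA genes those called were named, and of the other germ cell genes those called in at least 3 comparisons. Alternatives were normexp background correction with an offset of 50, median scaling, quantile normalization, other filters, no fold limit, the slide or the replicate number as a block, single slides, an unpaired equal-variance test of each probe (the study's methods name limma for the arrays), the authors' table and leaving out each array. The processed signal has background subtracted, so low values are uncertain. They entered the fits and correlations, and folds against them are given as bounds. Replicate numbers were not taken to pair the samples, since the labels tie them to no shared culture or day. Probe sequences and DNA methylation were not analysed here.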

Additional observations from a re-analysis of the deposited data

Results flagged for a closer look

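In J1-serum, 1 of 4 arrays stood apart for 3 members: replicate 1 for Piwil2 (-1.58 on the log2 scale) and Ddx4 (0.94), both the lowest of their group, and replicate 3 for Tdrd9 (-1.04, the highest and the only level of that gene well above background). Dixon's test was run on 11 groups of 4, and chance flags about 1 in 20 such groups. Replicate 1 was the only J1-serum array on slide 3, and the part of the slide and its scan day was not tested.

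The 2i response was called different between lines by an interaction term for 5 members, and the difference was measured for Fkbp6, Mael and Ddx4. Between TKO and J1 the difference was -1.60 for Fkbp6, with -1.41 on its second probe, and a fitted -3.93 for Asz1, which was below background in J1. Between 3B3l and J1 it was 2.72 for Mael, 1.5 for Ddx4 and a fitted 1.82 for Mov10l1. The Mov10l1 value rests on levels below background in both 2i groups and on 1 of 2 3B3l-serum arrays.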

How the results depend on the processing

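Of 42 called member values, 28 kept their call under every alternative that was run, none changed sign, and 28 of 1127 recomputed values lost the call. Counts of called members were as follows where they moved by more than 1.5 times. With probes required to be well above background on all 16 arrays, the counts were 3 in the J1 response, 2 in the TKO response, 1 in the 3B3l response, 1 in TKO against J1 in either medium, 2 in 3B3l against J1 in 2i, 1 and 3 in 3B3l against TKO in serum and 2i, and 1 and 2 in the TKO and 3B3l response differences. This filter leaves fewer genes to test. Without a fold limit they were 4 in the 3B3l response, 6 and 5 in TKO against J1 in serum and 2i, 4 in 3B3l against J1 in serum, 5 in 3B3l against TKO in serum and 4 in the TKO response difference. With normexp correction 1 was called in TKO against J1 in 2i, 1 in 3B3l against J1 in serum, 2 in 3B3l against J1 in 2i and 2 in the 3B3l response difference, and the cause was not tested. Quantile normalization, the slide as a block and the authors' table each called 1 in 3B3l against J1 in serum (Mael), and the slide block called 2 in 3B3l against J1 in 2i. Leaving out calls below background, chosen after seeing the data, also gave 2 there. An unpaired equal-variance test of each probe called 1 in the 3B3l response by unadjusted p and 0 after Benjamini-Hochberg, and 0 after that adjustment in 3B3l against TKO in serum.

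Leaving out each array gave 6 in the J1 response, 5 to 6 in TKO, 2 to 3 in 3B3l, 2 to 3 in TKO against J1 in either medium, 0 to 1 and 3 to 5 in 3B3l against J1 in serum and 2i, 2 to 4 and 5 in 3B3l against TKO, and 2 to 3 and 4 to 5 in the TKO and 3B3l response differences. The Mael call in 3B3l against J1 in serum appeared without J1-serum replicate 2 (-1.02). Without 3B3l-serum replicate 2 the Mael difference was -1.16, with 1 array left in that group. Where a group of 2 arrays lost 1, the spread came from the other groups alone, so those counts are uncertain.

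With the replicate block, the counts were 6 in the J1 response, 5 in TKO, 2 in 3B3l, 2 in TKO against J1 in either medium, 0 and 4 in 3B3l against J1, 3 and 5 in 3B3l against TKO, and 3 and 4 in the response differences. Deviations of same-numbered samples correlated at -0.13, 0.03 and -0.07 in the J1 response, 0.05, 0.01 and 0.02 in TKO against J1 in 2i, 0.27 and 0.27 in the 3B3l response and 0.20 and 0.14 in 3B3l against J1 in serum. The last 2 comparisons have 2 pairs each, and the labels tie no number to a shared culture or day, so the numbers were not used to pair samples. A crossed pairing in 3B3l against TKO in serum, added after seeing the data because r was -0.13 for both pairs, called 3 members. 3 of the 6 groups had 2 arrays, and where a group was below background only a lower bound of a difference could be given.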
